A study of Mus musculus with 12 samples.

Results

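Irf7, interferon regulatory factor 7 (NCBI gene 54123), was followed through 6 blood libraries of aged mice. The rule that picked it was its large difference between the groups in these same libraries, so it was selected on the measured values and its own levels are given as a description, with no test. It is 1 of 8003 genes in the blood table, which itself holds genes that the study had already selected as changed, and it was set against 5 other Irf genes and 108 interferon-induced genes of that table. All mice were C57BL/6, 15 months old. There were 3 mice in the Ctrl group, labelled normal, and 3 in the Akk group. For the Akk group the sample labels name a membrane protein of *Akkermansia muciniphila*, with a duration of 8 weeks in the sample characteristics but 6 weeks in the treatment protocol, whereas the methods text of the publication describes gavage, after an antibiotic pretreatment, with live bacteria, pasteurized bacteria or a vehicle. By that text, the RNA came from mice in which the bacterium had not colonized the gut. Each mouse gave 1 blood library of polyadenylated RNA, named here Ctrl 1 to 3 and Akk 1 to 3, and the hippocampus of the same design was sequenced as well.

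Interferon regulatory factors are transcription factors that recognize GAAA repeats in the promoters of interferons and of interferon-induced genes. Irf7 is regarded as the master regulator of type I interferon production: sensors of foreign nucleic acid lead to its phosphorylation, it enters the nucleus, and it drives the interferon alpha genes. Interferon then acts through its receptor and the Jak kinases on a complex that holds Stat2 and Irf9, which switches on the interferon-induced genes, Irf7 among them, so that the pathway feeds itself. In blood, plasmacytoid dendritic cells hold much Irf7 at rest, and monocytes gain it on exposure to interferon.

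*Irf7* lies at chr7:141262706-141266481 on the minus strand (GRCm38, GENCODE M21). Its 3′ end overlaps the end of *Phrf1*, on the plus strand, by 45 bases. The *Phrf1* FPKM (read fragments relative to transcript length and sequencing depth) was 1.33, 0.34 and 0.20 in Ctrl 1 to 3 and 0.29, 0.11 and 0.11 in Akk 1 to 3, far lower than the *Irf7* values; whether reads of the shared stretch were counted by strand is not given in the sources used here. Here the DNA upstream of all annotated *Irf7* starts is set beside promoter stretches of 5 genes named in the results, to show the element through which this family binds. All 5 hold that element, so they do not stand for the genes of the results as a whole. The sequences are from the RefSeq promoter windows of GRCm38.p6, written 5′ to 3′ on the gene's strand. Capitals mark the motif GAAANNGAAA, the core of the interferon-stimulated response element, on either strand, where N is any base and matches may overlap.

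*Irf7*, chr7:141266500-141266674, minus strand: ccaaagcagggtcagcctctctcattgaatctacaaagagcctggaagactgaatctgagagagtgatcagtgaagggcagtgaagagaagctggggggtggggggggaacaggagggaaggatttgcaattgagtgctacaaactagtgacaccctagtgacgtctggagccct
*Isg15*, chr4:156200857-156200916, minus strand: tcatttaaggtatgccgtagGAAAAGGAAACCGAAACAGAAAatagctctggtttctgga
*Ifit1*, chr19:34640765-34640824, plus strand: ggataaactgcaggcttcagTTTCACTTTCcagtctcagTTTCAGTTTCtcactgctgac
*Tgtp2*, chr11:49064243-49064302, minus strand: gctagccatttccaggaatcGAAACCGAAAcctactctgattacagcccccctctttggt
*Lgals9*, chr11:78984947-78984999, minus strand: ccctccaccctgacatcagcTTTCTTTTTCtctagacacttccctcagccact
*Stat2*, chr10:128270256-128270315, plus strand: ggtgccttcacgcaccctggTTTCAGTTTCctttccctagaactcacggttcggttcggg

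In the 300-base windows, which run from 250 bases before a start to 50 bases after it, *Isg15* held 3 overlapping copies of the motif and *Ifit1* held 2. The *Irf7* window held no copy, and 1 half-site (GAAA or its reverse complement), 6 to 3 bases before the start. No match says only that these letters are not in this window. Of 27025 genes with a window, 3.99% held the motif, and of the 6438 genes of the blood table with a window, 4.21% did. Of 88 interferon-induced genes with a window, 48 (54.5%) held it. Of the 5 other Irf genes only *Irf2* did. Among the 10 genes with the profile most like *Irf7*, given below, 8 had a window. Only 2 of these (25%) held the motif, *Tgtp2* and *Lgals9*, and the *Oasl2* window held none. The median log2 difference between the groups was -1.87 for the 48 interferon-induced genes with the motif and -1.67 for the 40 without it.

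The *Irf7* level was 176, 198 and 79.1 FPKM in Ctrl 1, 2 and 3, and 15.6, 25.0 and 19.8 FPKM in Akk 1, 2 and 3. The groups did not overlap, and the lowest Ctrl library stood 3.17-fold above the highest Akk library. Relative to the median gene of its own library, however, *Irf7* stood at 125, 566 and 360 times in Ctrl 1 to 3 and at 51.9, 139 and 104 times in Akk 1 to 3. On that scale, with nothing added to the FPKM, Ctrl 1 lay below Akk 2, so the groups overlapped, and the group means were 350 and 98.3. As log2(FPKM + 0.1) minus the library median, *Irf7* was at 6.86, 8.78 and 7.95 in Ctrl 1 to 3. It was at 5.29, 6.48 and 6.10 in Akk 1 to 3, without overlap, so whether the groups overlapped depended on the scale. The mean was 151 ± 63.2 FPKM in the Ctrl group and 20.1 ± 4.71 FPKM in the Akk group (SD, n = 3 each), a ratio of 7.50. In a bulk sample, fewer cells that hold *Irf7* RNA and less *Irf7* RNA per cell cannot be told apart. Among the 8003 genes, *Irf7* ranked 52nd, 10th and 14th by FPKM in Ctrl 1 to 3, and 89th, 57th and 74th in Akk 1 to 3. After a log2(FPKM + 0.1) transformation, under which low genes show less change than they underwent, the difference (Akk minus Ctrl) was -2.82 ± 0.99 (SE), the 10th most negative of the table. Each SE given here rests on a variance that limma shared across genes of like level, not on the gene's own spread. Without Ctrl 1 it was -2.66, the 3rd most negative, after *Gm41885*, a gene with a predicted name chosen here after its values were seen, and *Oasl2*.

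The Ctrl 1 library stood apart from the other 5. It held the highest value for 7862 of the 8003 genes (98.2%), the median gene had 5.07 times the mean of Ctrl 2 and Ctrl 3 there, and the FPKM of the table summed to 70846 in Ctrl 1, to 19551 in Ctrl 2, and to between 10311 and 11427 in the other 4 libraries. Since the table holds selected genes, these sums are not library totals. *Irf7* was an exception, with its highest value in Ctrl 2. Only 68 genes had theirs in Ctrl 2, and *Isg15* was the 1 interferon-induced gene among them. The median log2 difference of the table was -0.87 with all libraries and -0.24 without Ctrl 1, so the main differences are also given without Ctrl 1.

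**Figure D1:**
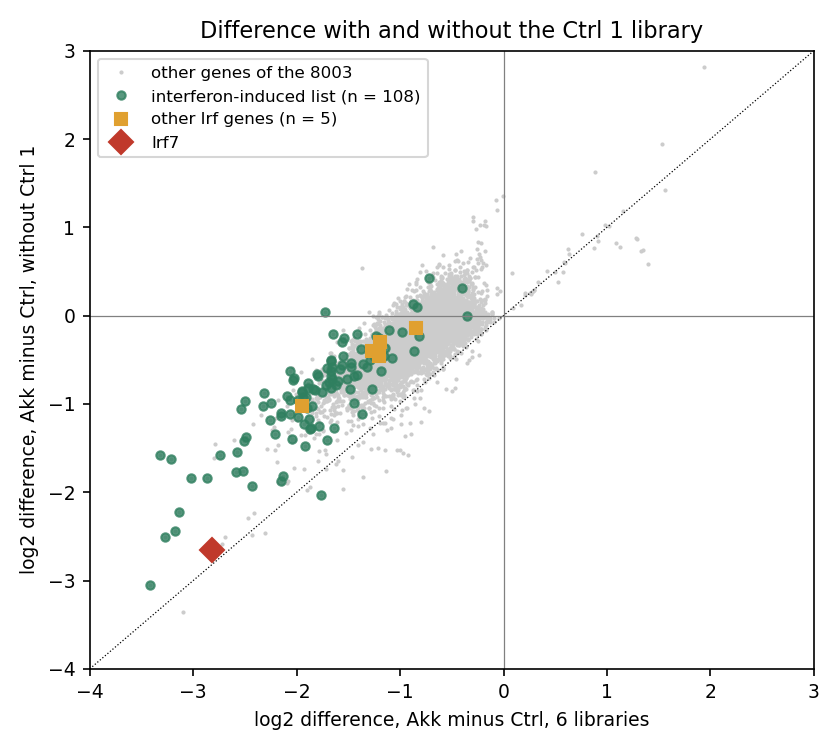
Log2 difference between the Akk and Ctrl groups for each of 8003 blood genes, with all 6 libraries on the horizontal axis and without Ctrl 1 on the vertical axis, both on the log2(FPKM + 0.1) scale; the dotted line marks equal values. *Irf7* (diamond) lies close to that line at -2.82 and -2.66, while the other Irf genes (squares) and most interferon-induced genes (green) lie above it, nearer to 0 without Ctrl 1.

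Beside *Irf7*, 5 of the 8 other Irf genes sought were in the blood table, and the rest were not analysed here. All 5 had far lower levels than *Irf7*. The lowest *Irf7* value of any library, 15.6 FPKM in Akk 1, was above the highest value of any other Irf gene, 14.7 FPKM for *Irf2* in Ctrl 1. *Irf7* made up 78.0%, 94.9% and 92.9% of the summed FPKM of the 6 genes in Ctrl 1 to 3, and 65.9%, 86.1% and 77.6% in Akk 1 to 3. These shares overlapped between the groups.

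*Irf9*, a DNA-binding partner of Stat2, was at 11.1, 2.14 and 1.10 FPKM in Ctrl 1 to 3 and at 1.00, 0.42 and 0.81 FPKM in Akk 1 to 3. It was the 1 gene of the 5 without overlap, that is, with all Akk libraries under all Ctrl libraries, a pattern that 15.4% of all 8003 genes showed, and its Ctrl 3 and Akk 1 values were close. Its log2 difference was -1.95 ± 0.93 (SE), and -1.03 without Ctrl 1. *Irf2*, which competes with other family members at their sites, was at 14.7, 2.24 and 2.12 FPKM in the Ctrl libraries and at 2.30, 1.34 and 1.76 FPKM in the Akk libraries. Outside Ctrl 1, the *Irf2* values of the groups overlapped.

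*Irf5*, which acts downstream of Myd88 in inflammatory cytokine induction, was at 12.1, 2.89 and 1.20 FPKM in the Ctrl libraries against 2.03, 0.82 and 1.61 FPKM in the Akk libraries. *Irf8*, needed for monocyte and dendritic cell development, was at 7.99, 2.11 and 1.20 FPKM against 1.83, 0.77 and 1.03 FPKM. *Irf3*, the constitutive factor of the first wave of interferon beta, was at 3.64, 1.33 and 0.42 FPKM against 0.91, 0.68 and 0.51 FPKM. In all of these the groups overlapped, with Ctrl 3 below at least 1 Akk library. The order of mean level was *Irf7*, *Irf2*, *Irf5*, *Irf9*, *Irf8* and *Irf3*, and the ranges of all neighbours after *Irf7* overlapped in both groups.

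The median log2 difference of the 5 other Irf genes was -1.20, ranging from -1.95 to -0.84, and without Ctrl 1 it was -0.40, ranging from -1.03 to -0.14. The ratio of the Ctrl mean to the Akk mean without Ctrl 1 was 6.89 for *Irf7*, 2.18 for *Irf9*, 1.38 for *Irf5*, 1.37 for *Irf8*, 1.25 for *Irf3* and 1.21 for *Irf2*. With limma across the 8003 genes, none of the 5 passed the thresholds of a 1.5-fold change or more and a Benjamini-Hochberg adjusted p no higher than 0.05, and all had an adjusted p of 0.487. The share of the whole table that passed was 0% (0 genes), and 276 genes had an unadjusted p under 0.05. The log2 difference of *Irf7* minus the median of the 5 was -1.62, and -2.26 without Ctrl 1. *Irf2bp1*, a corepressor that binds Irf2, was the 1 gene of its family of 3 in the table, at 0.17 to 0.94 FPKM in the Ctrl group and 0.17 to 0.27 FPKM in the Akk group.

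**Figure D2:**
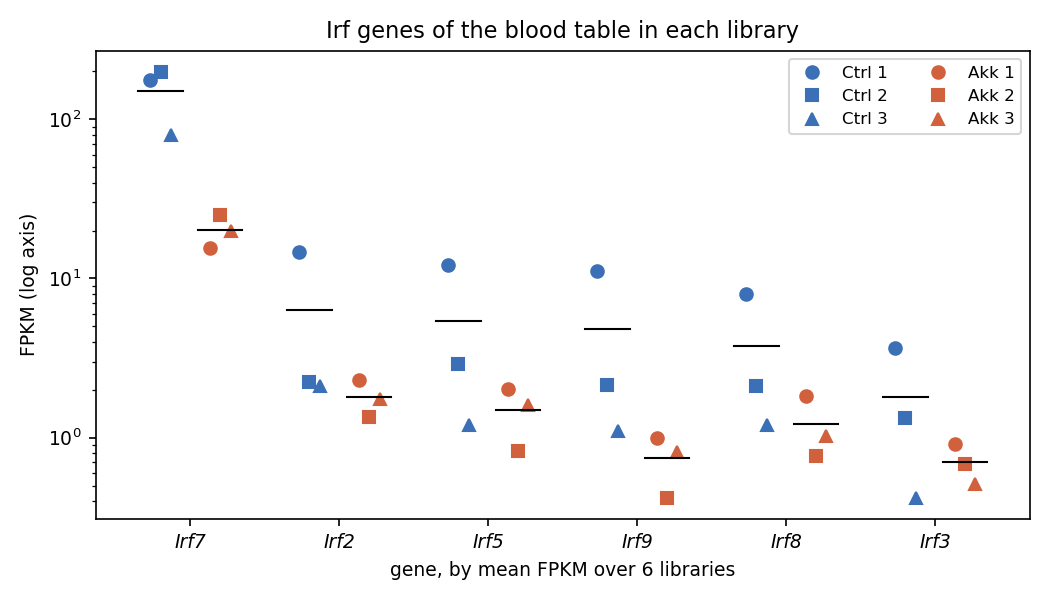
FPKM of the 6 Irf genes of the blood table in each library, on a log axis; blue symbols are Ctrl libraries, orange symbols Akk libraries, and bars are group means (n = 3). The 3 Akk values of *Irf7* (15.6 to 25.0) lie below its 3 Ctrl values (79.1 to 198), while in the other genes the highest value is that of Ctrl 1, and apart from it the groups overlap in all but *Irf9*.

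The interferon-induced list held 116 genes, of which 108 were in the table. All 108 had a negative log2 difference, as had 7965 of the 8003 genes. Without Ctrl 1, 102 had one, as had 6533 of the 8003 genes. The median log2 difference was -1.78, against -0.87 for all genes, and -0.83 without Ctrl 1, against -0.24. The Akk libraries all lay below the Ctrl libraries for 36 of the 108 genes (33.3%), against 15.4% of the table. Below Ctrl 2 and Ctrl 3 alone, the count was 36, against 15.6% of the table. The list holds more genes of high level than the table does. With a mean of at least 1 FPKM, 26 of 83 genes of the list (31.3%) did not overlap, against 20.1% of all such genes. The medians of these were -1.88 and -1.11, and -0.85 and -0.32 without Ctrl 1. An unadjusted limma p under 0.05 with a lower Akk mean was found for 55 of the 108 (50.9%), against 3.40% of the table, but none had an adjusted p below 0.487. Because the SE varied little between these genes, this count largely restates the size of the log2 differences, with Ctrl 1 included. The count takes in genes whose groups overlapped, such as *Ifit3*. The study had already selected the genes of the table on this contrast, so neither these p-values nor the adjusted p are a separate test. The summed FPKM of the list was 2892, 1109 and 556 in Ctrl 1 to 3 and 297, 307 and 284 in Akk 1 to 3, so the 3 Akk libraries differed little from each other and all lay below the Ctrl libraries.

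**Figure D3:**
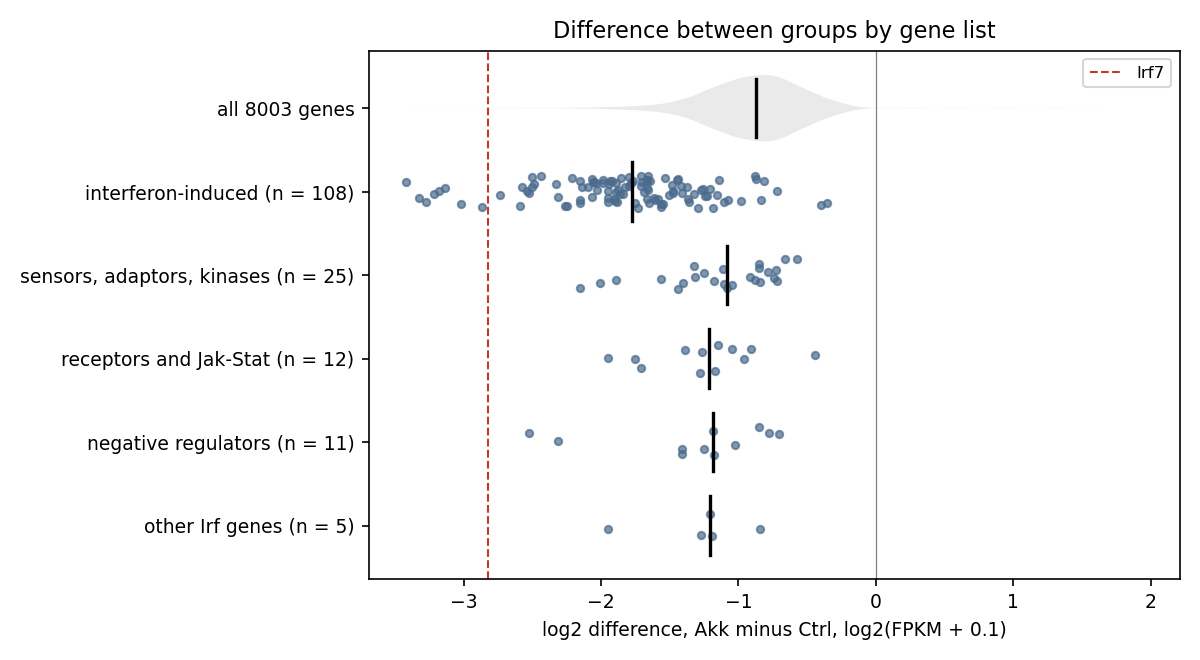
Log2 difference (Akk minus Ctrl, log2(FPKM + 0.1)) of the genes of each list, one point per gene with vertical scatter for visibility only; the grey shape is the distribution of all 8003 genes, black bars are medians, and the dashed line marks *Irf7* at -2.82. The median was -1.78 for the interferon-induced list, between -1.22 and -1.08 for the other lists, and -0.87 for all genes.

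The difference of *Irf7* minus the median of the list was -1.04 on the log2 scale, but -1.83 without Ctrl 1 and -0.56 without Ctrl 2. Only 8 of the 108 genes had a more negative difference than *Irf7*, and without Ctrl 1 only *Oasl2* had. *Oasl2*, of the oligoadenylate synthetase family that senses double-stranded RNA, was at 103, 61.8 and 37.9 FPKM in the Ctrl libraries and at 3.12, 8.62 and 6.97 FPKM in the Akk libraries. It had the most negative difference of the table, -3.42 ± 0.96 (SE), and -3.05 without Ctrl 1, and like *Irf7* it did not overlap between the groups. *Ifit1*, an inhibitor of the translation of foreign RNA, was at 47.2, 16.3 and 6.24 FPKM against 1.46, 2.33 and 1.65 FPKM, a difference of -3.18, and of -2.44 without Ctrl 1. *Ifit3*, its relative, was at 64.7, 4.21 and 0.61 FPKM against 0.86, 0.20 and 0.59 FPKM. The *Ifit3* groups overlapped, and its difference of -3.32 was -1.58 without Ctrl 1, unlike that of *Irf7*. *Ifit3b* was at 24.9, 1.70 and 0.37 FPKM against 0.06, 0.17 and 0.51 FPKM. It shares reads with the near-identical *Ifit3*, so the split between these genes is uncertain.

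*Isg15*, a ubiquitin-like protein that is attached to other proteins and among the most induced by interferon, had the highest level of the list. Its level was 200.47, 445 and 266 FPKM in the Ctrl libraries and at 72.1, 109.63 and 75.8 FPKM in the Akk libraries, with no overlap and, as for *Irf7*, the peak in Ctrl 2. Its log2 difference was -1.77 ± 1.02 (SE), and -2.03 without Ctrl 1. The ratio of *Irf7* to *Isg15* FPKM was 0.877, 0.445 and 0.298 in the Ctrl libraries and 0.216, 0.228 and 0.262 in the Akk libraries, so the *Irf7* share was lower in each Akk library. The ratio of *Irf7* to *Oasl2* FPKM overlapped between the groups, at 1.70, 3.21 and 2.09 against 4.99, 2.90 and 2.84.

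Among the other genes with a high level, *Ifitm3*, a membrane protein that blocks virus entry, was at 380.29, 118 and 38.1 FPKM against 26.4, 30.7 and 33.8 FPKM, which did not overlap. *Ly6e*, a surface protein of leukocytes, was at 229.86, 50.6 and 21.2 FPKM against 28.6, 11.4 and 22.6 FPKM, with Ctrl 3 below 2 of the Akk libraries. *Ifi27l2a* was at 166, 38.0 and 5.17 FPKM against 7.65, 1.56 and 4.74 FPKM. It had a difference of -3.02, and of -1.84 without Ctrl 1, although Ctrl 3 was below Akk 1. The least negative differences among genes with a mean of at least 1 FPKM were those of *Trim25*, a ligase that activates Ddx58, at -0.72, *Ifitm2* at -0.83 and *Nmi* at -0.99, and without Ctrl 1 those of *Trim25* and *Ifitm2* were positive, at 0.42 and 0.10.

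By family, the Ifit genes had a median log2 difference of -2.84 with all libraries and -1.50 without Ctrl 1, and 3 of 6 genes did not overlap between the groups, a pattern of 15.4% of the table. The oligoadenylate synthetases had medians of -2.32 and -1.28, with 3 of 7 free of overlap. The immunity-related GTPases, which attack vacuoles that hold pathogens, had -2.03 and -1.19, with 4 of 6 free of overlap, among them *Igtp* at 70.3, 15.2 and 9.32 FPKM against 5.32, 6.63 and 5.25 FPKM. The Isg15 system (*Isg15*, *Usp18* and *Herc6*) had -2.05 and -1.76, the most negative family median without Ctrl 1, with no overlap in its 3 genes. The other families lay nearer to the table's medians of -0.87 and -0.24. The Schlafens had -1.73 and -0.95 (2 of 7 without overlap), the Ifi20x family -1.75 and -0.65 (1 of 10) and the guanylate-binding proteins -1.42 and -0.50 (3 of 9). The Trim genes had -1.48 and -0.27 (0 of 4), and the Ifitm genes -1.21 and -0.26 (1 of 3). The 2 chemokine genes, *Cxcl9* and *Cxcl10*, were at a mean of 0.22 FPKM or less. Many of these families have near-identical members, and the split of reads between these is uncertain.

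**Figure D4:**
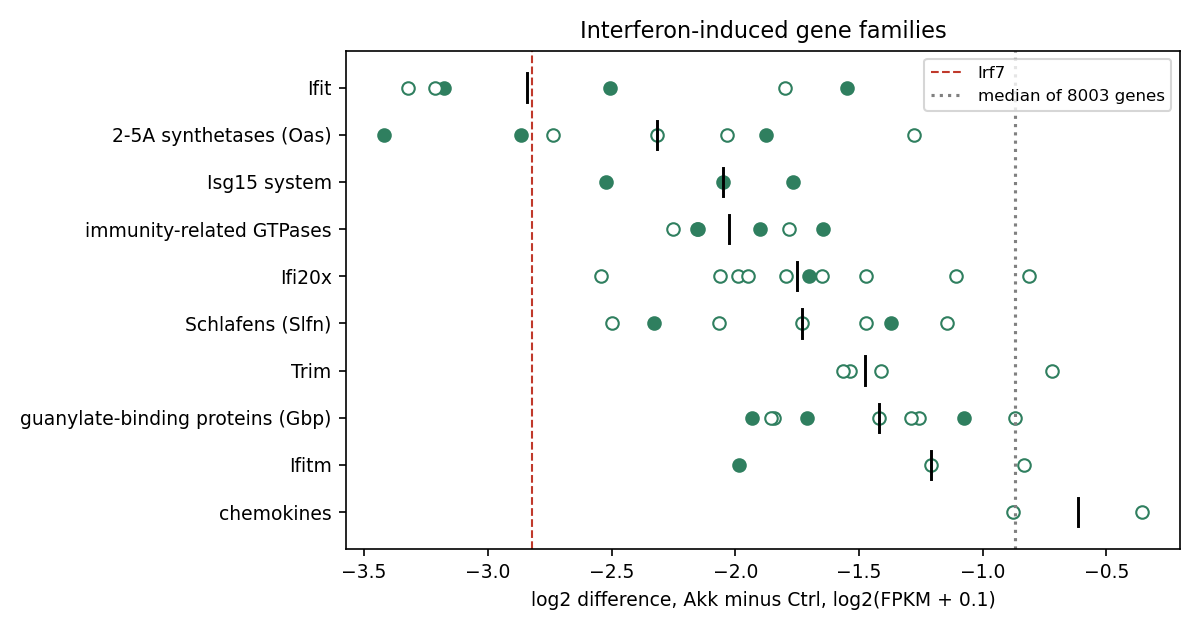
Log2 difference (Akk minus Ctrl, log2(FPKM + 0.1)) of each gene in 10 families of the interferon-induced list; filled points are genes whose groups did not overlap, bars are family medians, the dashed line is *Irf7* and the dotted line the median of the 8003 genes. The median of the Ifit genes, -2.84, reaches the *Irf7* value of -2.82, but without Ctrl 1 it is -1.50 against -2.66 for *Irf7*, and no family median reaches *Irf7*.

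Upstream of *Irf7*, 25 of the 26 sensors, adaptors and kinases sought were in the table, with a median log2 difference of -1.08, and of -0.26 without Ctrl 1. None passed the thresholds, 3 (12.0%) had an unadjusted limma p under 0.05 with a lower Akk mean, against 3.40% of the table, and 4 (16.0%) did not overlap between the groups, against 15.4%. Of the 3 with such a p, *Ifih1* and *Ddx58* are also on the interferon-induced list. *Tlr7*, the endosomal receptor of single-stranded RNA, was at 6.46, 0.94 and 0.47 FPKM in the Ctrl libraries against 0.36, 0.24 and 0.28 FPKM in the Akk libraries. *Ifih1*, a cytosolic sensor of long double-stranded RNA that is itself induced by interferon, was at 5.35, 0.78 and 0.32 FPKM against 0.22, 0.11 and 0.24 FPKM. In both, the Akk libraries lay below the Ctrl libraries, at levels that were low beside those of *Irf7*.

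*Ddx58*, the RIG-I sensor of short RNA, was at 7.68, 0.93 and 0.44 FPKM against 0.54, 0.28 and 0.25 FPKM, and overlapped. *Myd88*, the adaptor between Toll-like receptors and *Irf7*, had a log2 difference of -1.56, and of -0.53 without Ctrl 1. *Unc93b1*, which carries the endosomal receptors to their place, had the highest level of the list, at 26.9, 5.41 and 2.59 FPKM against 4.57, 2.63 and 3.02 FPKM. *Tlr13*, a sensor of bacterial ribosomal RNA, was at 16.5, 1.92 and 1.55 FPKM against 1.42, 1.31 and 1.54 FPKM, and its groups nearly met. The adaptor *Mavs* and *Tank*, which binds the kinase Tbk1, had differences of -1.05 and -1.25, and of -0.42 and -0.75 without Ctrl 1. *Azi2*, a Tbk1 adaptor, had -0.66, and 0.03 without Ctrl 1.

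None of the 21 interferon genes sought, the direct targets of Irf7 among them, was in the table, and they were not analysed here. Of 13 receptor, Jak and Stat genes, 12 were in the table, with a median log2 difference of -1.22, and of -0.43 without Ctrl 1. None passed the thresholds, *Irf9* alone (8.33% of the 12) had an unadjusted limma p under 0.05, against 3.40% of the table, and 3 (25.0%) did not overlap, against 15.4%. *Stat2*, the partner of Irf9, was at 6.30, 0.75 and 0.36 FPKM against 0.50, 0.17 and 0.34 FPKM, with Akk 1 above Ctrl 3. The receptor-bound kinase *Jak1* was at 29.2, 6.30 and 5.67 FPKM against 5.16, 4.64 and 3.03 FPKM, with no overlap. *Ifngr1*, a chain of the interferon gamma receptor, *Stat3*, *Il10rb* and *Jak2* had differences of -1.05, -1.17, -1.15 and -0.96, and of -0.24, -0.14, -0.63 and -0.10 without Ctrl 1.

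Of the 13 negative regulators sought, 11 were in the table, with a median log2 difference of -1.18, and of -0.40 without Ctrl 1. None passed the thresholds, 2 (18.2%) had an unadjusted limma p under 0.05 with a lower Akk mean, against 3.40% of the table, and 2 (18.2%) did not overlap, against 15.4%. The 2 with such a p, *Usp18* and *Oasl1*, are also on the interferon-induced list. *Usp18*, which removes Isg15 from proteins and blocks the interferon receptor, was at 8.98, 3.18 and 0.96 FPKM against 0.44, 0.39 and 0.53 FPKM, a difference of -2.52, and of -1.76 without Ctrl 1. *Oasl1*, which represses the translation of *Irf7* RNA, was at 17.0, 1.36 and 0.40 FPKM against 0.44, 0.26 and 0.42 FPKM. Its values overlapped, and its difference of -2.32 was -0.88 without Ctrl 1. Among the regulators that are not specific to interferon, *Dusp1*, *Ptpn6* and *Ptpn11* had differences of -1.18, -1.18 and -1.25, and of -0.02, -0.28 and -0.40 without Ctrl 1. *Socs3* had -0.78, and 0.17 without Ctrl 1.

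To find the genes with the profile most like that of *Irf7*, log2(FPKM + 0.1) was centred on each library's median, and Pearson's r was taken over the 6 blood libraries for the 2365 other genes with a mean of at least 1 FPKM. The points share libraries and the group difference, so r is only a description. The 10 highest values were between 0.95 and 0.99, and the median over the 2365 genes was 0.19. In order, the first 9 were *Ncf4*, a cytosolic subunit of the phagocyte oxidase, *Tgtp2*, an immunity-related GTPase, *Lgals9*, a galectin, *Sp100*, a nuclear body protein, *Nprl3*, a subunit of a complex that restrains mTOR, *Xaf1*, a cell death regulator, *Slfn14*, a Schlafen, *Trafd1*, a brake on innate signalling, and *Oasl2*. Of the 10, 5 were on the interferon-induced list, for which the median r was 0.38 among genes with a mean of at least 1 FPKM. Without Ctrl 1, 6 of the 10 stayed among the 10 most alike, and without centring, 4 did.

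None of these 9 overlapped between the groups. That pattern was shown by 15.4% of the table and by 20.1% of its genes with a mean of at least 1 FPKM. Choice by likeness to *Irf7*, itself picked for its group difference, favours such genes, so this is no separate result. *Tgtp2* was at 10.3, 7.46 and 4.38 FPKM in the Ctrl libraries and at 1.23, 1.72 and 1.55 FPKM in the Akk libraries. *Sp100* was at 54.1, 35.6 and 21.7 FPKM against 7.79, 9.14 and 6.70 FPKM, and *Lgals9* at 33.2, 18.3 and 9.41 FPKM against 4.57, 4.46 and 4.94 FPKM. *Ncf4*, with the highest r, was at 12.1, 5.11 and 2.96 FPKM against 2.14, 2.02 and 1.82 FPKM. For *Tgtp2*, *Sp100*, *Lgals9* and *Ncf4*, Ctrl 1 stood at 1.75, 1.89, 2.39 and 3.00 times the mean of Ctrl 2 and Ctrl 3. The median gene of the table stood at 5.07 times and *Irf7* at 1.27 times, so choice by likeness to *Irf7* favours low values here.

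**Figure D5:**
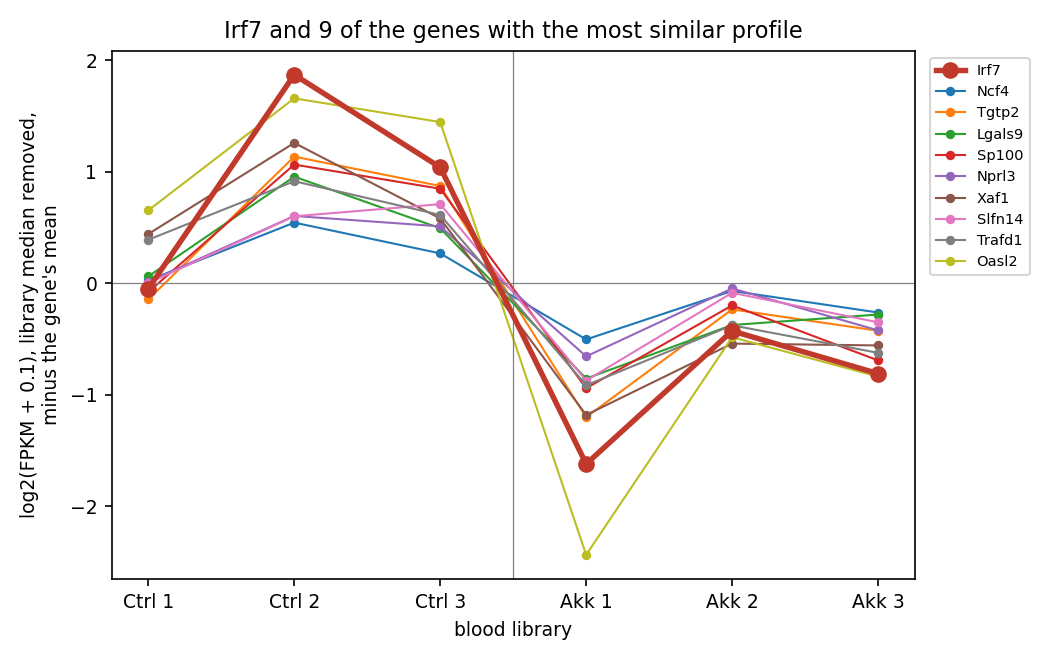
Profile over the 6 blood libraries of *Irf7* (thick red line) and of the 9 genes with the highest Pearson's r to it, as log2(FPKM + 0.1) with the library median and the gene's own mean removed. After centring, each gene is highest in Ctrl 2 or Ctrl 3 and lowest in Akk 1, with Akk 2 and Akk 3 in between.

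Levels of cell type markers differed between these libraries too. The defining marker of plasmacytoid dendritic cells, *Siglech*, was at 0.27, 0.04 and 0.12 FPKM in the Ctrl libraries and at 0.04 FPKM in each Akk library, and 4 of 10 genes of that list were in the table, the summed level being 0.99 to 19.1 FPKM in the Ctrl group and 0.77 to 1.59 FPKM in the Akk group. Most of that sum was *Bst2*, which interferon also induces, and *Runx2* came next at 0.14 to 0.97 FPKM. Of 12 monocyte markers 11 were in the table, with sums of 78.3 to 1011 FPKM in the Ctrl group and 78.0 to 136 FPKM in the Akk group, and *Csf1r* at 27.5, 5.26 and 2.92 FPKM against 2.90, 1.51 and 2.99 FPKM. *Lyz2*, *Ly6c2* and *Nr4a1* led that list, and 2 of its genes (18.2%) did not overlap between the groups, against 15.4% of the table.

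All 11 neutrophil markers were in the table, led by *S100a9*, *S100a8* and *Retnlg*. Their sums were 281 to 1420 FPKM in the Ctrl group and 145 to 370 FPKM in the Akk group, and 6 of the 11 (54.5%) did not overlap, against 15.4% of the table. *S100a8* was at 342.70, 106 and 66.1 FPKM against 37.9, 106 and 58.4 FPKM. The granule protein genes *Ngp*, *Camp* and *Ltf* of the list, named here after their values were seen, had differences near that of *Irf7*. *Ngp* was at 18.7, 7.69 and 21.0 FPKM against 0.67, 2.90 and 4.86 FPKM. Without Ctrl 1, the log2 difference was -2.51 for *Ngp*, -2.48 for *Camp* and -2.23 for *Ltf*, the 6th, 7th and 11th most negative of the table, beside -2.66 for *Irf7*, and none of these genes overlapped between the groups. The 11 neutrophil markers had a median of -0.84 without Ctrl 1 and ranged from -2.51 to 0.13, the last being *Csf3r*. Of 12 T and NK cell markers 9 were in the table, with sums of 11.8 to 36.0 FPKM and 4.74 to 13.1 FPKM, and 5 of the 9 (55.6%) did not overlap, against 15.4% of the table. *Nkg7*, with the highest level, and *Cd3e* were among these 5, while *Cd8b1* and *Lck*, next in level, overlapped, with Akk 1 above Ctrl 3. Platelet markers (9 of 9 in the table, led by *Ppbp*, *Pf4* and *Gp9*, with *Itga2b* as the defining marker) summed to 339 to 3383 FPKM in the Ctrl group and 415 to 530 FPKM in the Akk group, and the B cell markers (2 of 7, *Ms4a1* and *Pax5*) to 2.76 to 12.9 FPKM and 2.17 to 6.02 FPKM. The erythroid marker *Alas2* was not analysed here, and of the 14 erythroid markers only *Rhag* was in the table, at most at 1.13 FPKM. Without Ctrl 1, the ratio of the Ctrl to the Akk mean of these sums was 1.31 for monocytes, 1.36 for neutrophils, 1.22 for platelets, 1.10 for B cells, 1.91 for T and NK cells, 2.48 for plasmacytoid dendritic cells and 3.40 for the erythroid *Rhag*, beside 6.89 for *Irf7*. The monocyte sum was mostly *Lyz2*, which made up 165 of 221 FPKM in Ctrl 2 and had a log2 difference of -0.08 without Ctrl 1. The 11 monocyte markers had a median of -0.71 without Ctrl 1 and ranged from -1.29 to 0.29, so their sum understates the change of most of them. The part of these cell types in the *Irf7* difference was not tested.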

How the data were processed

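Blood and hippocampus RNA of 3 Ctrl and 3 Akk mice was sequenced on the BGISEQ-500. The study's methods name HISAT2, Bowtie2 and RSEM, while the submitters' processing notes name TopHat2, Cufflinks and GRCm38; whether counting used strand is not given in the sources used here. The authors deposited FPKM per library, rounded to 2 decimals, for genes they had selected as changed. The number of reads behind a value is unknown, so no interval for counting error is given, and the 3 mice per group limit the precision.

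Groups and replicates were taken from the labels. The deposited FPKM were transformed to log2(FPKM + 0.1) with no scaling between libraries and compared with limma 3.58.1 in R 4.3.3 (trend, Benjamini-Hochberg over 8003 genes; calls from a 1.5-fold change and up to an adjusted p of 0.05). The fit was tried on simulated data with noise drawn separately for each gene, without the shift that most genes share in Ctrl 1. Recovery of changes was required only at a spread smaller than the real one, so this does not show how many changes the fit would find here. P-values and SE rest on a variance that limma shared across genes of like level, estimated from 3 mice per group. They do not measure each gene's own spread between mice. The genes had been selected as changed between these same groups, so all p-values and adjusted p-values here are only a description. Python 3.11.15, pandas 2.3.3 and numpy 2.4.6 did the rest. The members, lists and families were chosen with earlier results of these data known. Of each pathway list, the named genes are the 6 with the highest mean FPKM and, above a mean of 1 FPKM, the 3 most and 3 least negative differences, with others above that mean allowed; of each marker list, the 3 highest and the defining marker. Lists share members, such as *Irf9*, *Ifih1*, *Ddx58*, *Usp18* and *Oasl1*, which are all on the interferon-induced list too, so the counts of the lists are not separate. Alternatives were other pseudocounts, a filter, centring, quantile normalization, each library left out, a replicate block, no trend, a fold threshold of 2, and ratios of mean FPKM. Some results are not reported here.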

Additional observations from a re-analysis of the deposited data

How the results depend on the processing

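The log2 difference of *Irf7* was negative under every alternative tried. It moved by more than the spread between replicates (SD 0.56) when libraries were centred on their median, to -1.91, and under quantile normalization, to -1.66; centring takes out the table's median shift of -0.87. Leaving out each library gave -3.23 to -2.57, from -1.62 to between -2.26 and -1.13 for *Irf7* minus the other Irf genes, and from -1.04 to between -1.83 and -0.56 for *Irf7* minus the interferon-induced genes, whose own median lay between -2.49 and -0.83. *Irf7* minus the interferon-induced genes was -1.83 without Ctrl 1, -0.56 without Ctrl 2, -1.65 with a pseudocount of 1 and -0.20 from ratios of mean FPKM. All of these moved by less than the spread between replicates (SD 1.22). That spread was larger than the -1.04 itself, so this says little about how stable the difference is. The list's own median was -0.83 without Ctrl 1. Calls across the table went from 0 to 4 with a pseudocount of 0.01, to 1 (higher) with centring, to 2 with centring and without Ctrl 1, an alternative chosen after seeing the data, and to between 0 and 23 with a library left out, the 23 without Ctrl 3; the cause was not tested. With the replicate block, 1 gene was called, *Ifi44*, named here after its values were seen. Deviations of libraries with the same replicate number had correlations of 0.04, -0.01 and -0.10, and 0 of 6 libraries correlated best with their own number, so the numbers give no pairing. Without counts, depth could not be set against any of these values.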

Other observations

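The hippocampus table holds 284 genes, among them no Irf gene and 5 genes of the lists above, whose differences were not tested here. *Tgtp2*, among the genes most like *Irf7* in blood, was at 1.46, 0.35 and 0.53 FPKM in the Ctrl hippocampus and at 0.35, 0 and 0 FPKM in the Akk hippocampus. Its neighbour in sequence *Tgtp1* was at 6.12, 0.97 and 0 FPKM against 0, 1.17 and 0.65 FPKM, with Ctrl 1 standing apart, and the split of reads between these copies is uncertain. *Gbp4*, a guanylate-binding protein, was at 0.90, 0.76 and 0.41 FPKM against 0.27, 0.38 and 0.48 FPKM. *Socs1*, an inhibitor of Jak kinases, was at 0.87, 1.00 and 0.54 FPKM against 0.91, 0.71 and 0.60 FPKM. *Slfn3* was at 0.11 FPKM or less in each library. The groups overlapped in all 5.

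In blood, 43 of the 108 interferon-induced genes (39.8% of the list) were among the 100 genes with the most negative log2 difference, making up 43% of those, and 26 (24.1% of the list) were among them without Ctrl 1. The list makes up 1.35% of the table.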
